A study of Homo sapiens with 8 samples.

Results

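The transcripts described here belong to 45 genes of the hypoxia response and of glycolysis, out of 23228 genes in the count files. The members were chosen by name, from a list of gene symbols. They comprise 6 genes of oxygen sensing, 2 glucose transporters, 13 glycolytic enzymes, 3 regulators of phosphofructokinase, 6 genes of pyruvate and lactate handling and 15 other genes known to respond to low oxygen. Of the 45, 44 were found under their own symbol, and ERO1A was found under its older symbol ERO1L. EGLN3, an oxygen-sensing prolyl hydroxylase, had 0 counts in all 8 libraries, where a count of 0 allows up to 3 counts per library. The remaining 44 members passed the filter on low counts and were tested.

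Hypoxia-inducible factor (HIF) is a pair formed by an oxygen-labile alpha subunit, HIF1A or EPAS1, and a stable partner, ARNT. In the presence of oxygen, prolyl hydroxylases mark the alpha subunit and the VHL ubiquitin ligase sends it for degradation, so that HIF is controlled largely through protein stability. Its targets include glucose transporters, most enzymes that turn glucose into pyruvate and lactate, and genes of mitophagy, acid balance, collagen modification and vessel growth, and many tumours express them strongly. Protein was not measured here, and the oxygen level of the cultures was not given in the sources used here.

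ES2, an established human line from an ovarian cancer, was profiled by RNA sequencing of polyadenylated or total RNA (the labels name kits for both). The design crossed loss of KDM1A, the demethylase of histone H3 lysine 4 also known as LSD1, with LY500307, a ligand that activates oestrogen receptor beta. The 4 groups were control cells with vehicle, control cells with LY500307 (5 µM), KDM1A knockout cells with vehicle and KDM1A knockout cells with LY500307 (5 µM), each treated for 48 h in the same serum-containing medium. Each group held 2 libraries, which the series text describes as sequencing duplicates. Not given in the sources used here were what the control cells carry, where KDM1A was edited, and whether the knockout cells are 1 clone or a pool. A difference between knockout and control cells therefore cannot be told apart from any other difference between those 2 cell populations. Because nothing says that the libraries of a group came from separate cultures, the p-values reflect just the spread between these samples, and that spread may be technical. In bulk RNA, fewer cells with a transcript and less of it per cell cannot be told apart.

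The libraries held 24348937 to 30131097 gene counts. KDM1A, the targeted gene, stood at 220.0 and 219 CPM (counts scaled to a common library size) in control vehicle libraries and 75.6 and 77.8 CPM in knockout vehicle libraries. With LY500307 the values were 238 and 241 CPM in control and 71.9 and 71.5 CPM in knockout libraries, so the labels and the targeted transcript matched in all 8. Transcripts of both oestrogen receptors were scarce, at no more than 0.511 CPM for ESR1 and 0.299 CPM for ESR2 in any library. Among 13 epithelial and ovarian carcinoma markers, MUC16, NAPSA and MSLN were under 1 CPM in all libraries, while KRT7 and KRT18 made up most of a summed level of 617 to 622 CPM in control vehicle, 542 to 551 in knockout vehicle, 730.1 to 740.4 in control LY500307 and 515 to 521 in knockout LY500307 libraries. Of 9 tested, 3 rose in knockout cells in vehicle (log2 0.50 for KRT7, 1.57 for PAX8 and 1.57 for WT1) and 3 fell (-1.02 for KRT18, -1.87 for KRT8 and -1.39 for EPCAM). EPCAM was low, at 0.852 and 2.13 against 0.526 and 0.602 CPM. The 4 mesenchymal markers, mainly VIM, summed to 12059.5 to 12426.6 CPM in control vehicle and 13114.1 to 13486.8 in knockout vehicle libraries. In vehicle, VIM (0.51) and ZEB1 (0.56) rose in knockout cells, and FN1 (-1.94) and CDH2 (-1.40) fell. With LY500307 the sums were 10989.1 to 11375.9 CPM in control and 10565.5 to 10745.9 CPM in knockout libraries. Among markers of other cell types, 6 of 8 haematopoietic, 4 of 7 endothelial and 2 of 6 fibroblast genes were under 1 CPM in all libraries, with CD3E, HBB and CLDN5 at 0. The sums of these lists were lower in knockout cells, but their members did not move together. In vehicle, 1 of 2 tested haematopoietic markers rose (LYZ, 2.67) and 1 fell, 1 of 4 endothelial markers rose (TEK, 2.97) and 2 fell, and 2 of 4 fibroblast markers rose (FAP, 1.59, and LUM) and 2 fell (PDGFRA, -2.33, and PDGFRB). Some of these rest on few counts. Summed over control vehicle and knockout vehicle libraries, LYZ had 16 and 120 counts and TEK 2 and 20. LUM had 2 and 79 and PDGFRB 42 and 7. The endothelial list, mainly CDH5, summed to 105 to 108 CPM in control vehicle, 33.1 to 33.3 in knockout vehicle, 86.1 to 91.2 in control LY500307 and 27.3 to 32.1 in knockout LY500307 libraries. The haematopoietic list, mainly CD68, summed to 96.9 to 100.4, 63.7 to 64.3, 111 to 112 and 63 to 75.6 CPM in the same order, and the fibroblast list, mainly PDGFRA in control cells, to 72.7 to 76.1, 39.3 to 41.2, 94.9 to 97.4 and 47.2 to 48.1 CPM. Their part in the results below was not tested.

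The members spanned a wide range of levels when counts were divided by transcript length (CPM per kilobase, mean of the control vehicle libraries). GAPDH, the dehydrogenase of the middle of glycolysis, was highest at 3744 CPM per kilobase, followed by the enolase ENO1 at 2355, the lactate dehydrogenase subunits LDHB at 1235 and LDHA at 1006, and the aldolase ALDOA at 889. HIF1A stood at 151 CPM per kilobase, while EPAS1, the gene of the other alpha subunit, stood at 2.2 and ARNT at 8.17. The lowest detected members were ANGPTL4, a lipoprotein lipase inhibitor, at 0.717 and ADM, the vasodilator peptide adrenomedullin, at 0.114 CPM per kilobase. The gene bodies lie on many chromosomes in GRCh37, for example SLC16A3 at chr17:80175810-80219005, HK2 at chr2:75061254-75120486, ALDOC at chr17:26900133-26903966 and PFKFB4 at chr3:48555117-48599448. In this annotation 14 members overlap another listed gene, among them PFKFB4 (UCN2), SLC16A3 (CSNK1D), ALDOC (SGK494) and CA9 (C9orf100). The counter tallied ambiguous reads, which fit several genes, apart from the genes, at 0.811% to 0.861% of uniquely aligned reads. Other reads of such partners cannot be told apart, because the counter's strand setting was not given in the sources used here. A further uncertainty concerns the 16 members with pseudogenes that carry their name, most of all GAPDH with 65, BNIP3 with 44 and PGAM1 with 13. Reads aligned to several places were likewise tallied apart from the genes, at 46.6 to 52.8 per 100 uniquely aligned reads. How many of them came from these members was not measured.

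Shown here are the 250 bases upstream of the RefSeq transcription start for 6 members on which the comparisons below turn (GRCh38.p14, each written 5′ to 3′ on the strand of its gene). SLC16A3, ALDOC, PGK1 and BNIP3 had large differences with knockout, and PFKFB4 and CA9 had large differences with LY500307. Capitals mark ACGTG or GCGTG, the core letters of the hypoxia response element, on the given strand or as CACGT or CACGC from the opposite strand. A run of CACGTG counts as a match on each strand, and these overlap. The windows are chr17:82228185-82228434 (plus strand) for SLC16A3, chr17:28576896-28577145 (minus) for ALDOC, chrX:78103998-78104247 (plus) for PGK1, chr10:131981924-131982173 (minus) for BNIP3, chr3:48556804-48557053 (minus) for PFKFB4 and chr9:35673678-35673927 (plus) for CA9.
SLC16A3: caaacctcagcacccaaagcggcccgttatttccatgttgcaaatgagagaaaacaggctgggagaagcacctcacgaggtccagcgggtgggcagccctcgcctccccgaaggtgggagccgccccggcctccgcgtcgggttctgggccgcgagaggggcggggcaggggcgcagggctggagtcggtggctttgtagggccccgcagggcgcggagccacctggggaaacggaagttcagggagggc
ALDOC: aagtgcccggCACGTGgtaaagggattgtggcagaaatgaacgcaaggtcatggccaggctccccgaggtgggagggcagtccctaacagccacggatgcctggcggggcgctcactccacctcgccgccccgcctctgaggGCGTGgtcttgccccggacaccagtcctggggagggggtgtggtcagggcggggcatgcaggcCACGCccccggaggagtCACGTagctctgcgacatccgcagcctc
PGK1: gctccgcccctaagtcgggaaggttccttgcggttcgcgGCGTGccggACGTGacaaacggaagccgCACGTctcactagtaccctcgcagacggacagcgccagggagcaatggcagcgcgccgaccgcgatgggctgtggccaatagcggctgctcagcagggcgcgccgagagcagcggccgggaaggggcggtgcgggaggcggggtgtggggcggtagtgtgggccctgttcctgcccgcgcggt
BNIP3: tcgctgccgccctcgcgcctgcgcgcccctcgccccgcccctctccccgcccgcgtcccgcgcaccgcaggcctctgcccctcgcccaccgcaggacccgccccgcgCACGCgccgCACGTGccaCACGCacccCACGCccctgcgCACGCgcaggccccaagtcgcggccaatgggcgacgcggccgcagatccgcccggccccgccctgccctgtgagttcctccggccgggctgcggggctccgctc
PFKFB4: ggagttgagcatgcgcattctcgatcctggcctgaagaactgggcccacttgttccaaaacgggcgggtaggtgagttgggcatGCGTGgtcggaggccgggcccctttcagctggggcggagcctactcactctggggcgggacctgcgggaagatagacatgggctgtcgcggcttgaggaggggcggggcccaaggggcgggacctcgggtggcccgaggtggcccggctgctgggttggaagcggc
CA9: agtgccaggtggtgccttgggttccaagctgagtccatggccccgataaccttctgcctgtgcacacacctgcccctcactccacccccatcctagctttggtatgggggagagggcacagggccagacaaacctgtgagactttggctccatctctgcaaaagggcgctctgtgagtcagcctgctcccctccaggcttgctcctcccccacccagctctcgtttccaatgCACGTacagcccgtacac

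In the full window of 300 bases, which runs 50 bases past the start, 6 matches were found for BNIP3, 5 for ALDOC, 4 for PGK1, 1 for PFKFB4, 1 for CA9 and 0 for SLC16A3. RefSeq windows were at hand for 37 of the 45 members. At least 1 match stood in 27 of the 37 (73.0%), against 48.5% of all 35116 promoters in the table and 60.1% of the 13689 promoters of genes tested here. ACGTG alone stood in 18 of 37 members (48.6%), against 21.4% and 25.1% of those sets, and GCGTG in 18 of 37 (48.6%), against 36.5% and 48.0%. A match is a description of the letters and does not show that a factor binds there.

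Knockout of KDM1A came with lower transcripts of 8 of 13 glycolytic enzymes, of the lactate exporter SLC16A3, of the mitophagy receptors BNIP3 and BNIP3L and of the collagen hydroxylase subunits P4HA1 and P4HA2. EPAS1 and ARNT, which encode HIF subunits, and the repressor gene BHLHE40 were higher. In vehicle, 11 of the 44 members tested rose and 21 fell in knockout against control cells, where 30.7% of all 13498 genes tested rose and 33.3% fell. Called in either direction were 32 of the 44 (72.7%), against 64% of all genes. The median log2 fold change was -0.14 over the members and -0.01 over all genes tested. With LY500307 in both populations, 13 members rose and 24 fell, where 32.6% and 33.6% of all genes did, so that 37 of 44 (84.1%) were called, against 66.2% of all genes, and the medians were -0.23 and -0.01. These 2 comparisons share no library, and 11 members rose and 21 fell in both, against 26.5% and 28.5% of all genes. Those 11 and 21 are all of the calls made in vehicle, 11 of 13 of the rises with LY500307 and 21 of 24 of the falls, and 0 members were called in opposite directions.

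**Figure D1:**
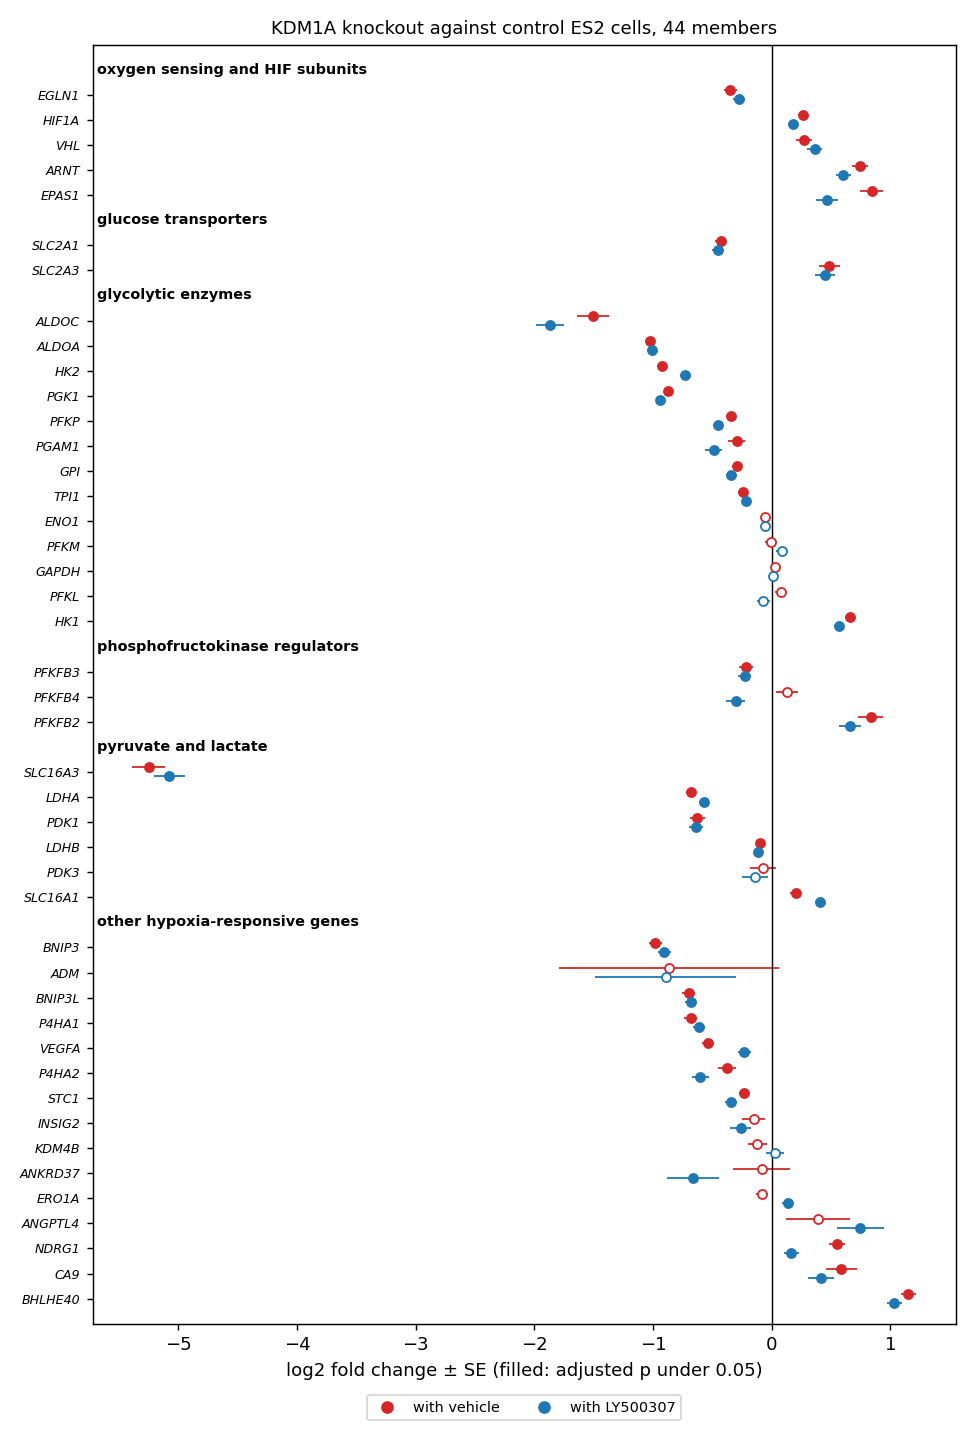
Log2 fold change of knockout against control cells (x axis, ± SE) for the 44 members tested, ordered by role, in vehicle and with LY500307. Filled points passed an adjusted p of 0.05. SLC16A3 stands far to the left of the other members at -5.25 and -5.07, and most glycolytic enzymes lie left of 0.

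Among the oxygen-sensing genes, 4 of 5 rose and 1 fell in knockout cells under either treatment, of which the rises of HIF1A and VHL did not hold after removal of chromosome arm medians. Of all genes tested, 30.7% rose and 33.3% fell in vehicle, and 32.6% and 33.6% with LY500307. EPAS1 stood at 11.3 and 11.3 CPM in control vehicle and 19.7 and 20.9 CPM in knockout vehicle libraries, which the edgeR quasi-likelihood test put at a log2 fold change of 0.84 (SE 0.0982, adjusted p = 3.23e-09). ARNT stood at 39.4 and 37.6 against 64.9 and 64.1 CPM, a change of 0.74 (SE 0.0666, adjusted p = 7.11e-12). For both genes each knockout library lay above each control library. With LY500307 the differences were 0.46 (adjusted p = 2.70e-05) for EPAS1 and 0.60 (adjusted p = 3.42e-10) for ARNT. HIF1A, the more abundant alpha subunit gene, stood at 595 and 593 against 708 and 714 CPM, a rise of 0.26 (SE 0.04, adjusted p = 8.23e-07), which became -0.042 (adjusted p = 0.332) when the median of its chromosome arm was removed. EGLN1, the main hydroxylase that marks HIF alpha subunits, was the member of this group that fell, from 109 and 109.6 to 87.1 and 84.6 CPM, a change of -0.35 (SE 0.0535, adjusted p = 7.15e-07). VHL rose by 0.27 (adjusted p = 0.000413), a value of -0.019 (adjusted p = 0.808) with the arm median removed.

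Whole chromosome arms differed between the 2 populations. The median log2 fold change in vehicle over the tested genes of an arm was 0.30 on 14q (HIF1A and ERO1A), 0.30 on 3p (VHL, PFKFB4 and BHLHE40), 0.28 on 1p (SLC16A1, SLC2A1 and ENO1), -0.24 on 8p (STC1 and BNIP3L) and -0.66 on 16p (ALDOA). It was 0.33 on 2q (PDK1 and INSIG2), 0.32 on 10p (PFKP and PFKFB3), 0.31 on 19p (KDM4B and ANGPTL4) and -0.36 on 8q (NDRG1). On 1q (ARNT, EGLN1 and PFKFB2) it was 0.17, and on 17q (SLC16A3 and ALDOC) -0.18. Closer to 0 were 10q at 0.04 (HK1, BNIP3, PGAM1 and P4HA1), 2p at -0.13 (HK2 and EPAS1) and Xq at -0.08 (PGK1). Among values past the threshold before or after removal of arm medians, 7 changed sign, all of them in knockout against control cells and listed in the closing section. In vehicle, 5 members that were not called passed the threshold after removal: ENO1 at -0.33 (adjusted p = 2.72e-07), INSIG2 at -0.48 (adjusted p = 9.71e-05), KDM4B at -0.43 (adjusted p = 3.81e-05), ERO1A at -0.39 (adjusted p = 1.31e-06) and PFKL at 0.16 (adjusted p = 0.00851).

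The glucose transporter genes moved in opposite directions. SLC2A1, the widespread transporter GLUT1, stood at 223 and 235 CPM in control vehicle and 167 and 172 CPM in knockout vehicle libraries and fell by 0.43 (SE 0.0483, adjusted p = 1.34e-09). SLC2A3, the high-affinity transporter GLUT3, rose from 17.8 and 18.3 to 23.8 and 26.5 CPM, by 0.49 (SE 0.0881, adjusted p = 1.21e-05). For each gene the libraries of the groups did not overlap. With LY500307 the differences were -0.45 for SLC2A1 and 0.45 for SLC2A3, both past the threshold. Per length, SLC2A1 made up 93.4% and 93.6% of the sum of both genes in the control vehicle libraries and 88.8% and 88% in the knockout vehicle libraries.

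Of the 13 glycolytic enzyme genes, 8 fell, 1 rose and 4 were not called in knockout cells in vehicle, and the counts were the same with LY500307. The 69.2% called lie near the 64% and 66.2% of all genes. The 61.5% that fell compare with 33.3% and 33.6% of all genes. At the first step, the hexokinase genes moved apart. HK2, the inducible hexokinase of many tumours, stood at 318 and 309 CPM in control vehicle and 164 and 166 CPM in knockout vehicle libraries, a change of -0.92 (SE 0.0465, adjusted p = 1.17e-18). HK1, the more uniformly expressed hexokinase, rose from 339 and 333 to 536 and 524 CPM, by 0.66 (SE 0.0422, adjusted p = 1.14e-15). Per length, HK2 made up 37.5% and 37.3% of the pair in control vehicle libraries and 16.4% and 16.9% in knockout vehicle libraries. With LY500307 the shares were 34.5% and 32.7% in control and 17.1% and 17% in knockout libraries.

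At the aldolase step, which splits the six-carbon sugar, both genes fell. ALDOA stood at 1441 and 1477 against 703 and 731 CPM, a change of -1.03 (SE 0.0398, adjusted p = 5.56e-22), on an arm whose own median was -0.66. ALDOC, the aldolase of brain that hypoxia also induces, stood at 14.9 and 14.6 against 4.86 and 5.49 CPM in vehicle, a change of -1.51 (SE 0.133, adjusted p = 5.43e-12). With LY500307 the values were 25 and 25.8 CPM in control and 5.7 and 8.17 CPM in knockout libraries, a change of -1.87 (SE 0.118, adjusted p = 7.38e-16), and each knockout library lay below each control library under both treatments. PGK1, the first enzyme of glycolysis to yield ATP, fell from 1454 and 1484 to 795 and 812 CPM, a change of -0.87 (SE 0.0376, adjusted p = 1.35e-20).

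The other falls were smaller. They were -0.35 for the phosphofructokinase subunit PFKP, -0.29 for the isomerase GPI, -0.29 for the mutase PGAM1 and -0.24 for the triose isomerase TPI1, with adjusted p from 8.66e-09 to 0.000468. GAPDH and ENO1, the most abundant members, were not called, at 0.03 (adjusted p = 0.499) and -0.06 (adjusted p = 0.165). With the median of arm 1p removed ENO1 fell, at -0.33 (adjusted p = 2.72e-07) in vehicle and -0.36 (adjusted p = 9.42e-08) with LY500307, and with the replicate block it was -0.056 (adjusted p = 0.0463) and -0.056 (adjusted p = 0.0431). Not called either were the subunits PFKL at 0.08 and PFKM at -0.01. The enzymes of this route thus differed by unequal amounts, from -1.51 to 0.66.

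**Figure D2:**
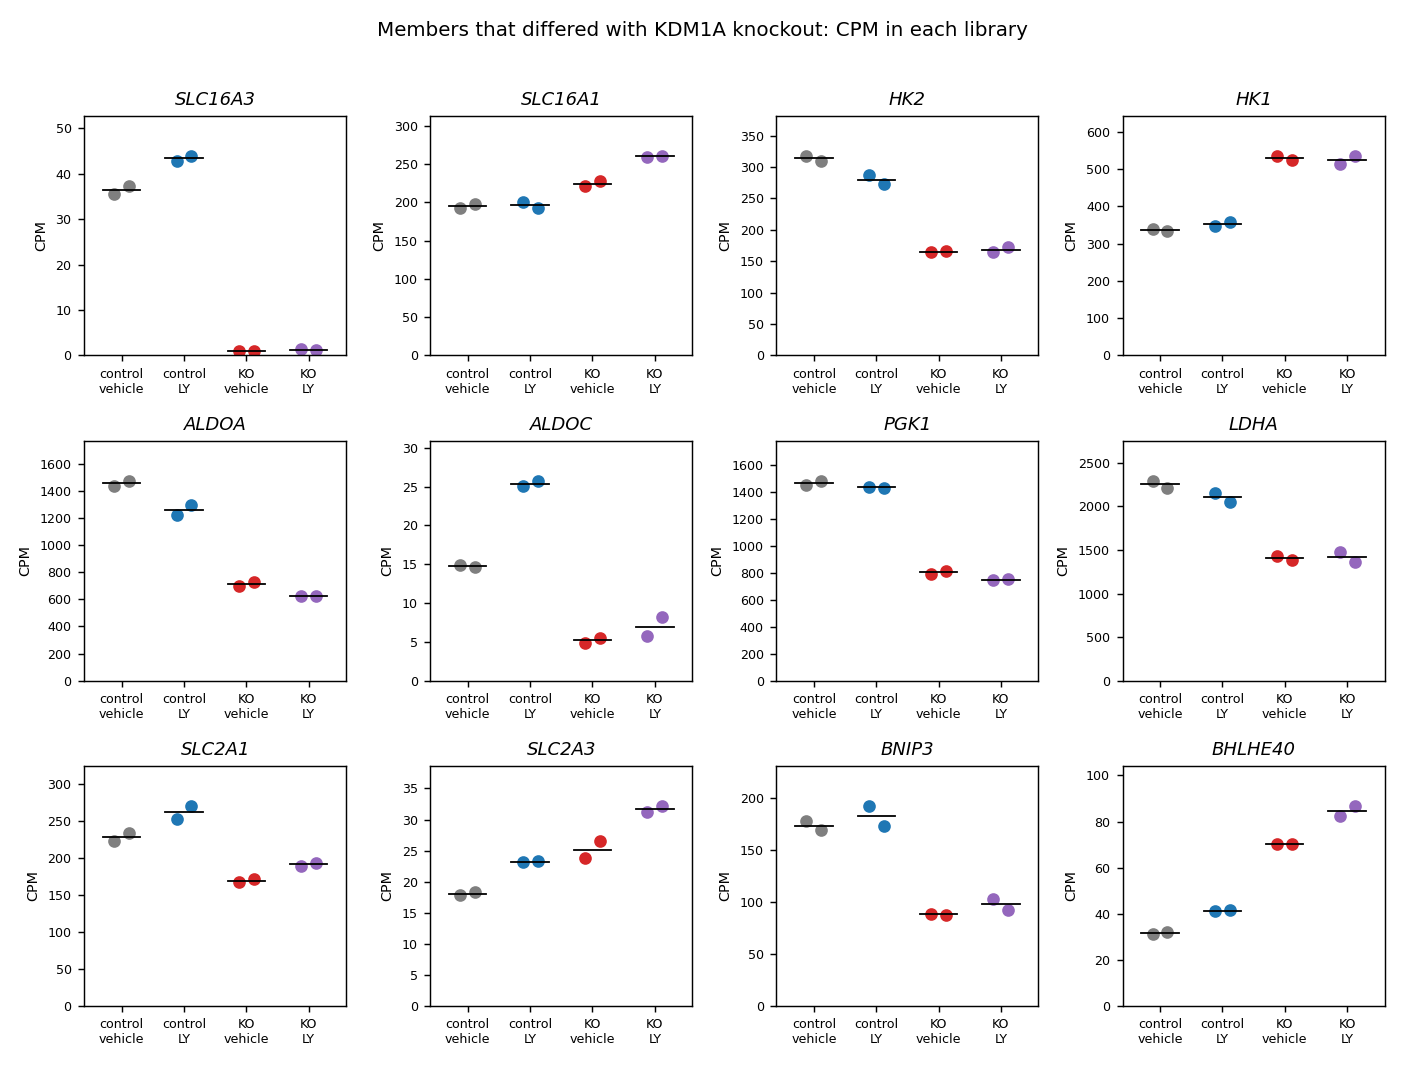
CPM (y axis, from 0) in each of the 8 libraries for 12 members that differed with knockout, by group. Points are libraries and bars are group means of 2. Both knockout groups stand below both control groups for SLC16A3, HK2, ALDOA, ALDOC, PGK1, LDHA, SLC2A1 and BNIP3, and above them for HK1, SLC16A1 and BHLHE40.

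The bifunctional PFKFB enzymes set the level of fructose 2,6-bisphosphate, the activator of phosphofructokinase. PFKFB2 stood at 11.8 and 10.2 CPM in control vehicle and 18.8 and 20.3 CPM in knockout vehicle libraries and rose by 0.83 (SE 0.103, adjusted p = 1.22e-08). PFKFB3, the isoform tied to proliferation, fell by 0.22 (adjusted p = 0.00103). PFKFB4 was not called in vehicle at 0.13 (adjusted p = 0.23), and it fell by 0.30 (adjusted p = 0.00132) where both populations had LY500307.

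Among genes of pyruvate and lactate, 4 of 6 fell and 1 rose under either treatment. This put 83.3% past the threshold, against 64% of all genes in vehicle and 66.2% with LY500307. SLC16A3, the lactate exporter MCT4, showed the largest difference of any member. It stood at 35.5 and 37.3 CPM in control vehicle and 0.891 and 1 CPM in knockout vehicle libraries, a log2 fold change of -5.25 (SE 0.139, adjusted p = 5.99e-27). With LY500307 the values were 42.8 and 44 CPM in control and 1.31 and 1.26 CPM in knockout libraries, a change of -5.07 (SE 0.128, adjusted p = 1.21e-27). Its summed counts were 1707 in control vehicle and 52 in knockout vehicle libraries. SLC16A1, the lactate transporter MCT1, rose by 0.20 (adjusted p = 0.000254) in vehicle, a value of -0.076 (adjusted p = 0.124) with the median of arm 1p removed, and by 0.41 (adjusted p = 1.22e-09) with LY500307. Per length, SLC16A3 made up 21% and 21.4% of the pair in control vehicle libraries and 0.577% and 0.632% in knockout vehicle libraries.

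LDHA, the lactate dehydrogenase subunit that hypoxia induces, fell from 2295 and 2215 to 1426 and 1384 CPM, a change of -0.68 (SE 0.0398, adjusted p = 8.20e-17). LDHB, the other subunit, fell by 0.10 (adjusted p = 0.023), a call lost with library totals, at -0.049 (adjusted p = 0.239). It was also lost without control vehicle library 1, control vehicle library 2 or knockout vehicle library 1, at -0.10, -0.091 and -0.079. Per length, LDHA made up 45.4% and 44.4% of the pair in control vehicle libraries and 35.8% and 34.6% in knockout vehicle libraries. PDK1, a kinase that holds pyruvate back from the mitochondrion, fell from 89.6 and 83.5 to 55.8 and 56.3 CPM, a change of -0.63 (SE 0.0604, adjusted p = 4.33e-11). Its relative PDK3 was not called at -0.07 (adjusted p = 0.584).

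**Figure D3:**
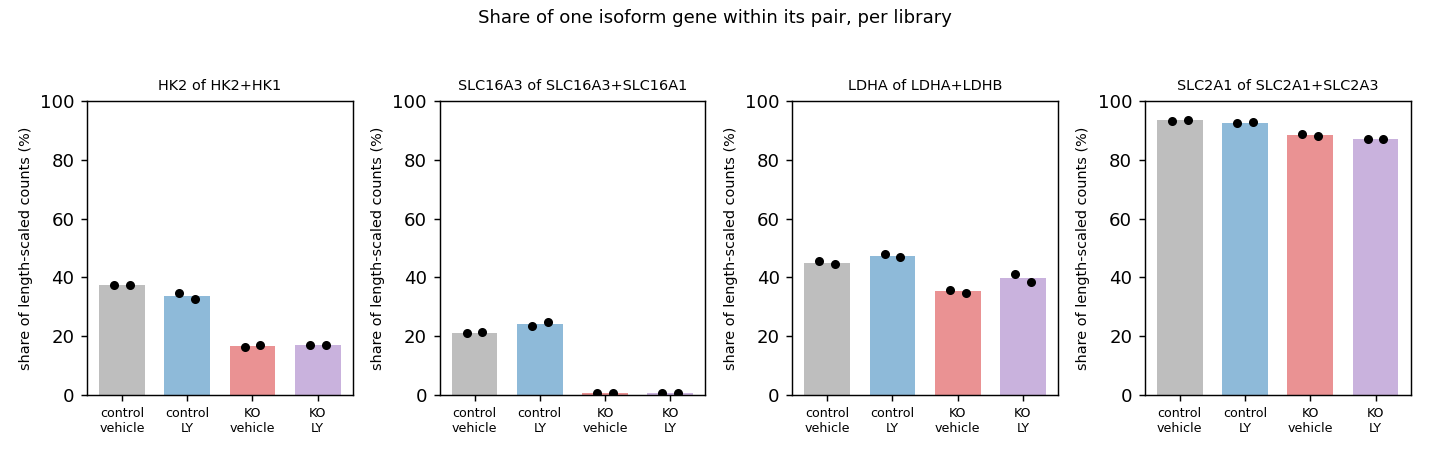
Share of 1 gene in the length-scaled counts of a pair (y axis, percent), by group. Bars are means of 2 libraries and points are the libraries. Knockout groups stand below control groups in all 4 pairs, most widely for HK2 of the hexokinase pair and SLC16A3 of the lactate transporter pair.

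Among the 15 other hypoxia-responsive genes, 3 rose and 6 fell in knockout cells in vehicle, and 5 rose and 8 fell with LY500307. The 60% called in vehicle lie near the 64% of all genes, and with LY500307 86.7% were called, against 66.2%. BNIP3, a receptor for the removal of mitochondria, stood at 178 and 169 CPM in control vehicle and 88.5 and 87.3 CPM in knockout vehicle libraries and fell by 0.98 (SE 0.0573, adjusted p = 8.25e-17). Its homologue BNIP3L fell by 0.70 (adjusted p = 2.51e-13). P4HA1 and P4HA2, catalytic subunits of the collagen prolyl hydroxylase, both fell, at -0.68 (adjusted p = 1.33e-13) and -0.38 (adjusted p = 6.10e-05). VEGFA, the vessel growth factor, stood at 125 and 131 against 87.6 and 89.2 CPM and fell by 0.54 (SE 0.0527, adjusted p = 6.13e-11). The secreted glycoprotein gene STC1 fell by 0.23 (adjusted p = 8.73e-05), a value of 0.030 (adjusted p = 0.574) with the median of arm 8p removed. For BNIP3, P4HA1 and VEGFA every knockout library lay below every control library within each treatment.

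BHLHE40, a transcriptional repressor induced by hypoxia, went the other way. It stood at 31.3 and 31.9 CPM in control vehicle and 70.2 and 70.1 CPM in knockout vehicle libraries, a rise of 1.15 (SE 0.0664, adjusted p = 5.94e-17), and rose by 1.03 (adjusted p = 2.37e-16) with LY500307. NDRG1, a stress-responsive growth regulator, rose from 35.7 and 37.9 to 51.4 and 56.2 CPM in vehicle, by 0.55 (SE 0.0693, adjusted p = 1.69e-08), and by 0.16 (adjusted p = 0.0237) with LY500307, the second call being lost without control LY500307 library 1 (adjusted p = 0.193), knockout LY500307 library 1 (adjusted p = 0.107) or knockout LY500307 library 2 (adjusted p = 0.0574). CA9, the cell-surface carbonic anhydrase used as a marker of hypoxia, stood at 8.82 and 9.85 against 11.4 and 16.4 CPM in vehicle, a rise of 0.59 (SE 0.129, adjusted p = 0.000168). Without knockout vehicle library 2, the higher of the pair, it was 0.29 (adjusted p = 0.082). ANGPTL4 was called with LY500307, at 0.75 (adjusted p = 0.00134), against 0.39 (adjusted p = 0.207) in vehicle, and the difference between these values was not called (adjusted p = 0.691). With the median of arm 19p removed it was 0.41 (adjusted p = 0.121). ERO1A, INSIG2 and ANKRD37 were likewise called where both populations had LY500307 and not in vehicle, and for none of them was the difference between these values called (adjusted p = 0.119, 0.761 and 0.422), although that of ERO1A was with the replicate block (adjusted p = 0.0226). ERO1A rose by 0.14 (adjusted p = 0.0195), lost without control LY500307 library 2 (adjusted p = 0.273) or knockout LY500307 library 2 (adjusted p = 0.13) and at -0.18 (adjusted p = 0.00364) with the median of arm 14q removed. INSIG2 fell by 0.26 (adjusted p = 0.0096), lost without control LY500307 library 1 (adjusted p = 0.168) or knockout LY500307 library 1 (adjusted p = 0.0568), and ANKRD37 fell by 0.67 (adjusted p = 0.00791), lost without knockout LY500307 library 2 (adjusted p = 0.0547).

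With LY500307 the split among the members ran between glycolytic enzymes, which were mostly lower, and other hypoxia-responsive genes, which were mostly higher. In control cells 18 of 44 members rose and 8 fell, where 12.3% of all genes tested rose and 14% fell, and 26 of 44 (59.1%) were called either way, against 26.3%. In knockout cells 18 rose and 9 fell, where 9.16% and 11.3% of all genes did, and 27 of 44 (61.4%) were called either way, against 20.4%. The median log2 fold change over members was 0.08 in control and 0.16 in knockout cells, against 0.01 and 0.01 over all genes. These 2 comparisons share no library, and 14 members rose in both and 5 fell in both, against 4.26% and 6.65% of all genes. The 14 are 14 of 18 rises in each population, the 5 are 5 of 8 falls in control and 5 of 9 in knockout cells, and 0 members were called in opposite directions. Scaling by library totals in place of TMM factors moved the calls of all genes from 1665 higher and 1885 lower to 2831 and 1011 in control cells, and from 1237 and 1522 to 2287 and 954 in knockout cells. With totals, 4 members were called lower in control cells in place of 8.

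**Figure D4:**
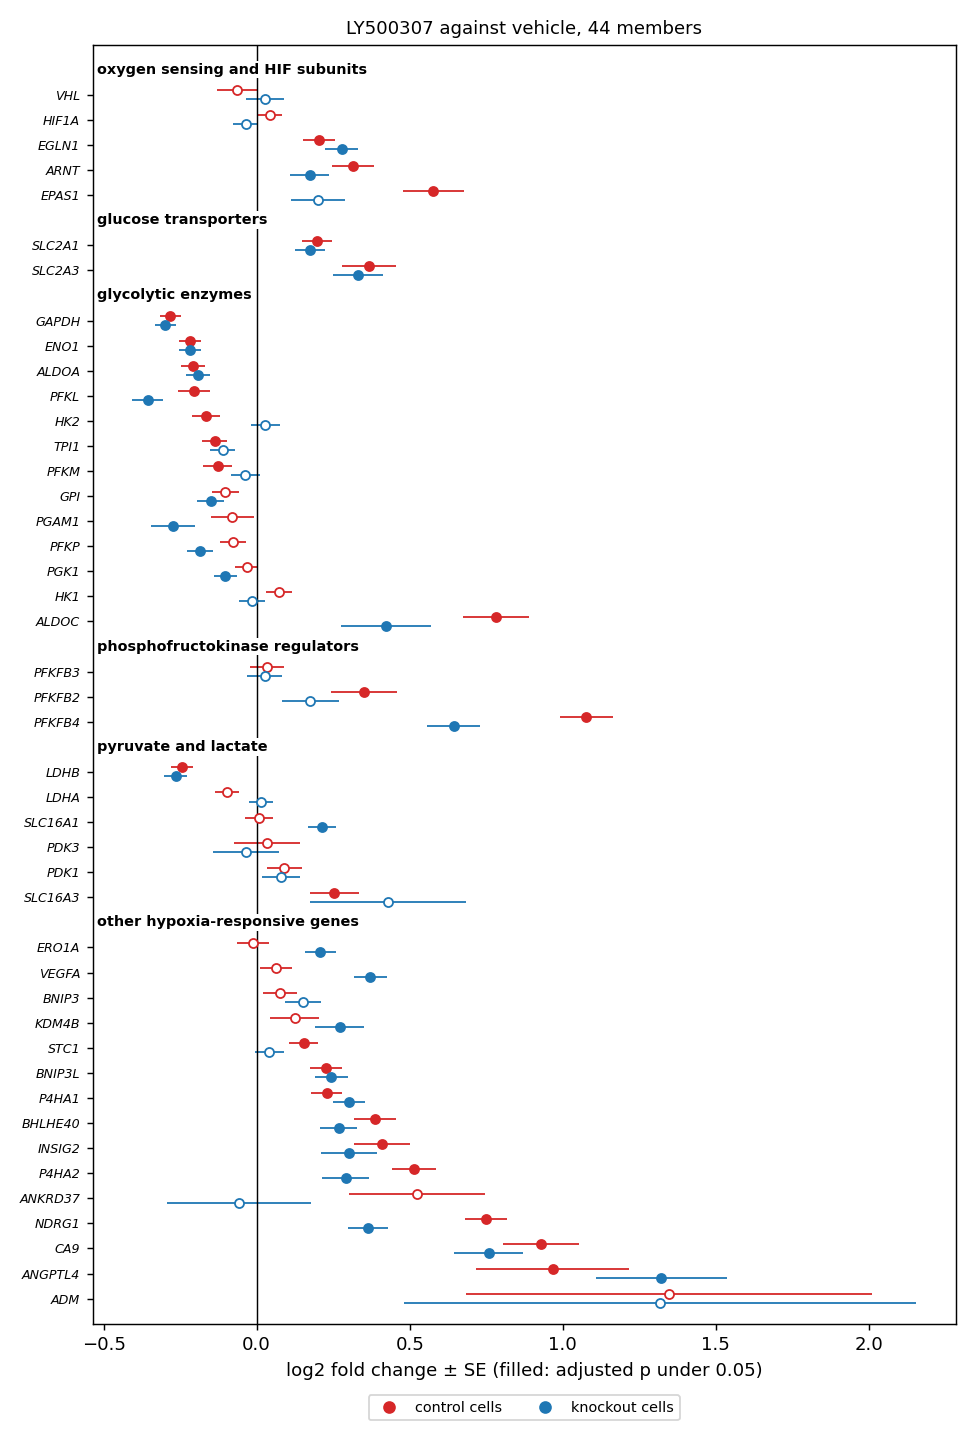
Log2 fold change of LY500307 against vehicle (x axis, ± SE) for the 44 members tested, by role, in control and knockout cells. Filled points passed an adjusted p of 0.05. All glycolytic enzymes called lie left of 0 except ALDOC, and all other hypoxia-responsive genes called lie right of 0.

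Among the 13 glycolytic enzymes, 1 rose and 7 fell in control cells, and 1 rose and 8 fell in knockout cells. The shares called were 61.5% and 69.2%, against 26.3% and 20.4% of all genes. GAPDH stood at 4749.6 and 4871 CPM in control vehicle and 3879.5 and 4033 CPM in control LY500307 libraries, a change of -0.28 (SE 0.0346, adjusted p = 2.12e-07). The knockout libraries held 4827 and 4978 CPM with vehicle and 4043 and 3931 CPM with LY500307, a change of -0.30 (SE 0.0346, adjusted p = 8.79e-08). ENO1 fell as well, at -0.22 (adjusted p = 1.97e-05) in control and -0.22 (adjusted p = 2.53e-05) in knockout cells. For both genes the LY500307 libraries lay below the vehicle libraries in each population. ALDOA fell in both, at -0.21 (adjusted p = 0.000166) and -0.19 (adjusted p = 0.000608).

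PFKL, the liver-type phosphofructokinase subunit, fell by 0.20 (adjusted p = 0.00322) in control cells, a call lost without control LY500307 library 1 (adjusted p = 0.0548) and with library totals, at -0.13 (adjusted p = 0.0527). In knockout cells it fell by 0.36 (adjusted p = 4.24e-06). HK2 fell by 0.17 (adjusted p = 0.00664) in control cells, a call lost without control vehicle library 1 (adjusted p = 0.0782) or control LY500307 library 2 (adjusted p = 0.108) and with library totals, and stood at 0.03 (adjusted p = 0.718) in knockout cells. TPI1 fell by 0.14 (adjusted p = 0.013) in control cells, a call lost without control vehicle library 2 (adjusted p = 0.227) or control LY500307 library 1 (adjusted p = 0.111) and with library totals. The fall of PFKM in control cells, -0.13 (adjusted p = 0.0464), was lost without any 1 of the 8 libraries, at -0.094 to -0.16. It was also lost with library totals, DESeq2 (adjusted p = 0.0608), its size factors, no filter and removal of chromosome arm medians. In knockout cells TPI1 stood at -0.11 (adjusted p = 0.0544), and 5 alternatives put it past the threshold, among them DESeq2 (adjusted p = 0.0444) and the replicate block (adjusted p = 0.0113). The difference between populations was not called for HK2, TPI1 or PFKM (adjusted p = 0.129, 0.888 and 0.586), although that of HK2 was with the replicate block (adjusted p = 0.0323).

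Calls were made for 4 further enzymes in knockout cells and not in control cells, although for none of them was the difference between populations called (adjusted p = 0.376 to 0.796). PGAM1 fell by 0.27 (adjusted p = 0.00569), lost without knockout vehicle library 2 (adjusted p = 0.174). PFKP fell by 0.18 (adjusted p = 0.00167), lost without knockout vehicle library 2 (adjusted p = 0.0566). GPI fell by 0.15 (adjusted p = 0.014), lost without knockout vehicle library 2 or knockout LY500307 library 2, at -0.11 and -0.12. It was also lost with library totals and with removal of chromosome arm medians (adjusted p = 0.0882). PGK1 fell by 0.10 (adjusted p = 0.0496), lost without any 1 of the 8 libraries, at -0.086 to -0.12. It was also lost with the compared groups alone (adjusted p = 0.091) and with removal of chromosome arm medians (adjusted p = 0.0544). With library totals, where the call was lost too, it was -0.043 (adjusted p = 0.428).

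ALDOC was the 1 glycolytic enzyme gene that rose. In control cells it went from 14.9 and 14.6 CPM with vehicle to 25 and 25.8 CPM with LY500307, by 0.78 (SE 0.109, adjusted p = 1.88e-06). Among knockout libraries it went from 4.86 and 5.49 to 5.7 and 8.17 CPM, by 0.42 (SE 0.146, adjusted p = 0.0356). This call was lost with DESeq2 (adjusted p = 0.0728) and with the compared groups alone (adjusted p = 0.077). It was also lost without knockout vehicle library 1, knockout vehicle library 2 or knockout LY500307 library 2, at 0.34, 0.52 and 0.13. Per length, ALDOC made up 1.04% and 0.997% of the aldolase pair in control vehicle libraries and 2.04% and 1.98% in control LY500307 libraries.

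Of the 3 regulators of phosphofructokinase, 2 rose in control cells and 1 in knockout cells. These are 66.7% and 33.3%, where 12.3% and 9.16% of all genes rose. PFKFB4, whose single GCGTG is shown above, stood at 17 and 17 CPM in control vehicle and 34.1 and 37.6 CPM in control LY500307 libraries, a rise of 1.08 (SE 0.0875, adjusted p = 4.08e-11). In knockout cells it stood at 17.5 and 19.5 against 28.3 and 29.7 CPM, a rise of 0.64 (SE 0.0865, adjusted p = 1.33e-06). Every LY500307 library lay above every vehicle library. PFKFB2 rose by 0.35 (adjusted p = 0.0143) in control cells, lost without control vehicle library 2 (adjusted p = 0.195), control LY500307 library 1 (adjusted p = 0.0701) or control LY500307 library 2 (adjusted p = 0.062), and stood at 0.18 (adjusted p = 0.184) in knockout cells. PFKFB3 was called in neither population. The difference between populations was not called for PFKFB2.

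Both glucose transporter genes rose in both populations, where 12.3% of all genes rose in control cells and 9.16% in knockout cells. SLC2A3 rose by 0.37 (adjusted p = 0.00223) in control cells and 0.33 (adjusted p = 0.00322) in knockout cells, the latter lost without knockout vehicle library 1 (adjusted p = 0.0855). SLC2A1 rose by 0.20 (adjusted p = 0.00217) and 0.17 (adjusted p = 0.00834). Its first call was lost without control vehicle library 1 (adjusted p = 0.0593) or control LY500307 library 2 (adjusted p = 0.0864), and its second without knockout vehicle library 1 (adjusted p = 0.0882) or knockout LY500307 library 2 (adjusted p = 0.0679).

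Of the oxygen-sensing genes, EPAS1 rose in control cells, from 11.3 and 11.3 CPM with vehicle to 17.2 and 16.6 CPM with LY500307, by 0.58 (SE 0.0997, adjusted p = 4.95e-05). In knockout cells it was 0.20 (adjusted p = 0.106), and the difference between the populations was not called (adjusted p = 0.154). ARNT rose by 0.31 (adjusted p = 0.00075) in control cells and by 0.17 (adjusted p = 0.0458) in knockout cells. The second call was lost without any 1 of the 8 libraries, at 0.13 to 0.19. It was also lost with DESeq2 (adjusted p = 0.0869), its size factors, no filter, the compared groups alone and removal of chromosome arm medians. EGLN1 rose by 0.20 (adjusted p = 0.00393) and 0.28 (adjusted p = 0.000238). HIF1A was 0.04 (adjusted p = 0.447) and -0.04 (adjusted p = 0.566), and VHL -0.06 (adjusted p = 0.51) and 0.03 (adjusted p = 0.802), none of them called.

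Of the 6 genes of pyruvate and lactate, 1 rose and 1 fell with LY500307 in each population. The 33.3% called compare with 26.3% of all genes in control cells and 20.4% in knockout cells. LDHB fell, at -0.24 (adjusted p = 7.22e-06) in control and -0.26 (adjusted p = 2.35e-06) in knockout cells, while LDHA was -0.10 (adjusted p = 0.0658) and 0.01 (adjusted p = 0.835). SLC16A1 rose in knockout cells by 0.21 (adjusted p = 0.000789) and was 0.01 (adjusted p = 0.915) in control cells. SLC16A3 rose in control cells by 0.25 (adjusted p = 0.0161). This call was lost without control vehicle library 1, control LY500307 library 1 or control LY500307 library 2, at 0.22, 0.27 and 0.23. It was also lost with DESeq2 and with limma-trend, with arm medians removed (adjusted p = 0.141) or not (adjusted p = 0.182). In knockout cells, where its level was near 1 CPM, it was 0.43 (adjusted p = 0.243). PDK1 and PDK3 were called in neither population. For none of the 6 genes was the difference between populations called.

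Of the 15 other hypoxia-responsive genes, 9 rose and 0 fell in control cells, and 11 rose and 0 fell in knockout cells. The shares called were 60% and 73.3%, against 26.3% and 20.4% of all genes. CA9 stood at 8.82 and 9.85 CPM in control vehicle and 18 and 17.5 CPM in control LY500307 libraries, a rise of 0.93 (SE 0.125, adjusted p = 1.14e-06). Knockout libraries held 11.4 and 16.4 against 22.4 and 25 CPM, a rise of 0.76 (SE 0.112, adjusted p = 6.43e-06). The LY500307 libraries lay above the vehicle libraries in each population. NDRG1 rose by 0.75 (SE 0.0685, adjusted p = 6.82e-10) in control cells, from 35.7 and 37.9 to 60.1 and 63.6 CPM. In knockout cells it rose by 0.36 (SE 0.0649, adjusted p = 9.23e-05), from 51.4 and 56.2 to 69.8 and 68.8 CPM. BHLHE40 rose by 0.39 (adjusted p = 7.14e-05) and 0.27 (adjusted p = 0.00135).

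P4HA2 stood at 33.1 and 34.8 CPM in control vehicle and 48 and 49.1 CPM in control LY500307 libraries, a rise of 0.51 (SE 0.0729, adjusted p = 2.66e-06), and rose by 0.29 (adjusted p = 0.00566) in knockout cells, lost there without knockout vehicle library 2 (adjusted p = 0.0908) or knockout LY500307 library 2 (adjusted p = 0.065). P4HA1 rose by 0.23 (adjusted p = 0.000958) and 0.30 (adjusted p = 7.04e-05), the first lost without control vehicle library 2 (adjusted p = 0.0587). BNIP3L rose by 0.23 (adjusted p = 0.00159), lost without control LY500307 library 1 (adjusted p = 0.0684), and by 0.24 (adjusted p = 0.00138), lost without knockout LY500307 library 1 (adjusted p = 0.0826). INSIG2, a brake on sterol synthesis, rose by 0.41 (adjusted p = 0.000956) in control cells and by 0.30 (adjusted p = 0.0174) in knockout cells, the latter lost without knockout vehicle library 1 (adjusted p = 0.0514), knockout vehicle library 2 (adjusted p = 0.144) or knockout LY500307 library 2 (adjusted p = 0.114).

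ANGPTL4 was low but higher with LY500307 in both populations. It stood at 1.53 and 1.15 against 2.69 and 2.57 CPM in control cells, a rise of 0.97 (SE 0.251, adjusted p = 0.00422) that was 0.77 (adjusted p = 0.0803) without control vehicle library 2. Its knockout libraries stood at 1.98 and 1.57 against 4.69 and 4.15 CPM, a rise of 1.32 (SE 0.214, adjusted p = 2.60e-05). Calls in 1 population were made for STC1 in control cells, 0.15 (adjusted p = 0.0155), lost without control vehicle library 1 (adjusted p = 0.136), control LY500307 library 1 (adjusted p = 0.0548) or control LY500307 library 2 (adjusted p = 0.113). In knockout cells they were made for KDM4B, a histone demethylase, at 0.27 (adjusted p = 0.0123), lost without knockout vehicle library 1 (adjusted p = 0.0772), knockout vehicle library 2 (adjusted p = 0.0678) or knockout LY500307 library 2 (adjusted p = 0.228), and for the thiol oxidase ERO1A at 0.21 (adjusted p = 0.00311), lost without knockout vehicle library 2 (adjusted p = 0.116). The difference between populations was not called for STC1, KDM4B or ERO1A, although that of ERO1A was with the replicate block, as given above. BNIP3 was not called, at 0.08 (adjusted p = 0.33) and 0.15 (adjusted p = 0.0606). ADM had at most 13 counts in a library and ANKRD37, an ankyrin repeat protein, at most 3.17 CPM, and neither was called with LY500307.

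**Figure D5:**
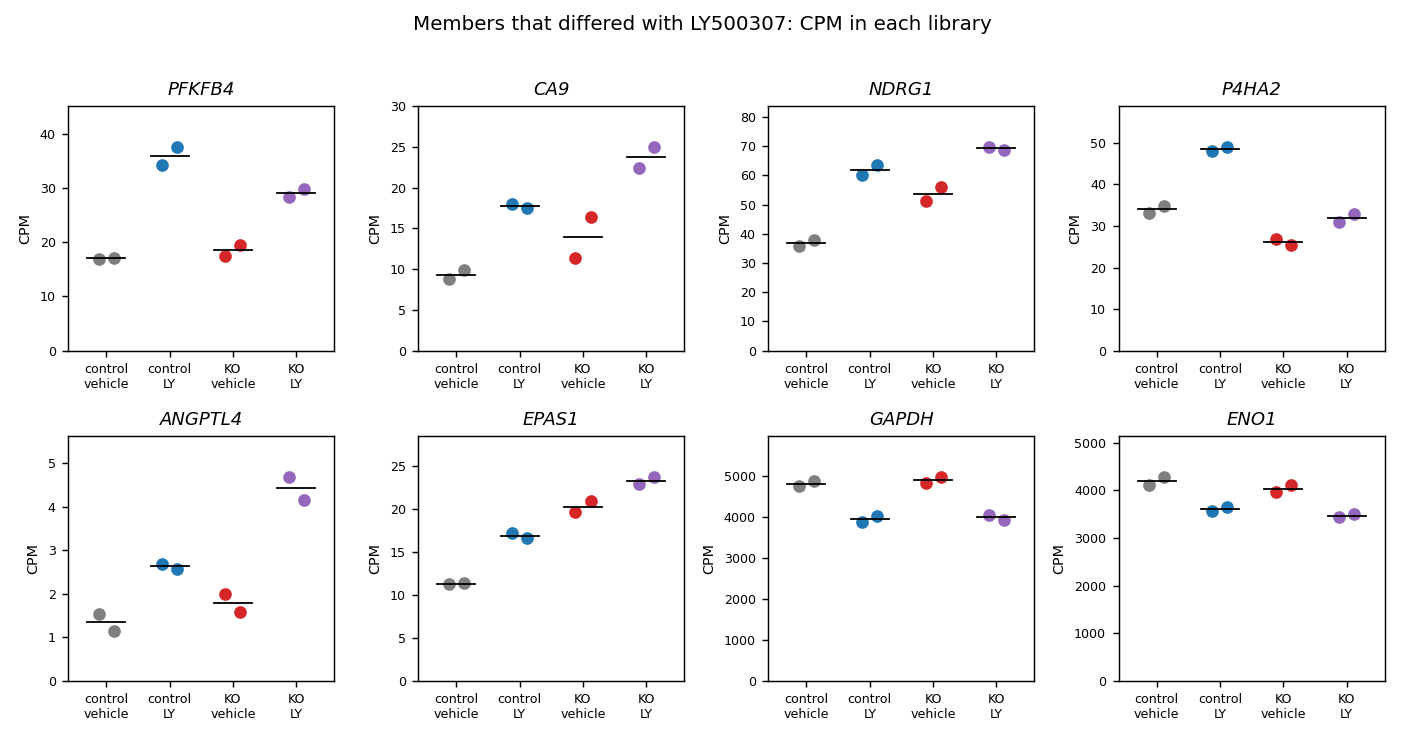
CPM (y axis, from 0) in each of the 8 libraries for 8 members that differed with LY500307, by group. Points are libraries and bars are group means of 2. PFKFB4, CA9, NDRG1, P4HA2, ANGPTL4 and EPAS1 stand higher with LY500307 within each population, and GAPDH and ENO1 stand lower. The rise of EPAS1 was called in control cells and not in knockout cells.

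Knockout and LY500307 met in some members. The comparison of knockout with control cells in vehicle and that of LY500307 with vehicle in control cells share the control vehicle libraries, so their values are given side by side with no measure of likeness. Lower with knockout and higher with LY500307 were EGLN1 (-0.35 and 0.20), SLC2A1 (-0.43 and 0.20), ALDOC (-1.51 and 0.78), SLC16A3 (-5.25 and 0.25), BNIP3L (-0.70 and 0.23), P4HA1 (-0.68 and 0.23), P4HA2 (-0.38 and 0.51) and STC1 (-0.23 and 0.15). Higher in both were EPAS1 (0.84 and 0.58), ARNT (0.74 and 0.31), SLC2A3 (0.49 and 0.37), PFKFB2 (0.83 and 0.35), CA9 (0.59 and 0.93), NDRG1 (0.55 and 0.75) and BHLHE40 (1.15 and 0.39). Lower in both were HK2, ALDOA, TPI1 and LDHB, at the values given above. GAPDH and ENO1 were called lower with LY500307 and were not called with knockout, although ENO1 was called lower there with arm medians removed or with the replicate block, at the values given above. Some of these calls were lost without 1 library, as given above.

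Whether the response to LY500307 differed between knockout and control cells was tested as an interaction. Of 44 members, 1 was called higher and 1 lower, where 0.526% and 1.09% of all genes were, or 1.62% in either direction. VEGFA stood at 125 and 131 CPM with vehicle and 134 and 134 CPM with LY500307 in control cells, and at 87.6 and 89.2 against 115 and 113 CPM in knockout cells. Its response was 0.06 in control and 0.37 in knockout cells, a difference of 0.31 (SE 0.0735, adjusted p = 0.02). NDRG1 responded less in knockout cells, with a difference of -0.39 (SE 0.0944, adjusted p = 0.0253). Neither call held when libraries were left out: that of VEGFA was lost without control vehicle library 2 (adjusted p = 0.107), knockout vehicle library 1 (adjusted p = 0.0761), knockout vehicle library 2 (adjusted p = 0.069), control LY500307 library 1 (adjusted p = 0.0791), control LY500307 library 2 (adjusted p = 0.0782) or knockout LY500307 library 1 (adjusted p = 0.0801), and that of NDRG1 without control vehicle library 1 (adjusted p = 0.143), knockout vehicle library 2 (adjusted p = 0.22) or control LY500307 library 2 (adjusted p = 0.151). For PFKFB4 the difference was -0.43 (SE 0.124, adjusted p = 0.0647), short of the threshold, and it passed with no filter on low counts (adjusted p = 0.0328) and with the replicate block (adjusted p = 0.0193).

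The wider pathway was described by 104 other genes, of which 88 were tested. In knockout against control cells in vehicle, 23 rose and 38 fell, with a median log2 fold change of -0.03, and with LY500307 22 rose and 38 fell. The shares called, 69.3% and 68.2%, lie near the 64% and 66.2% of all genes. Among 11 tested partners of HIF, 2 rose and 7 fell in vehicle, so that 81.8% were called, against 64% of all genes. ARNT2, a paralogue of ARNT, went from 17.5 and 17.1 to 0.364 and 0.903 CPM, a change of -4.70 (SE 0.192, adjusted p = 2.65e-21), while ARNT itself rose. TCEB1 and TCEB2, the elongins that join VHL in its ligase, both fell, at -0.77 and -0.78 (adjusted p = 1.00e-12 and 3.50e-12). The coactivator gene CREBBP fell by 0.54 (adjusted p = 1.84e-09). TCEB2 and CREBBP lie on 16p and TCEB1 on 8q, whose medians were -0.66 and -0.36, and ARNT2 on 15q, with -0.26.

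Among 38 tested genes of the glycolytic branches and of pyruvate entry, 14 rose and 11 fell in knockout cells in vehicle, and the 65.8% called lie near the 64% of all genes. HKDC1, a further hexokinase, rose from 3.07 and 3.2 to 19.8 and 22.6 CPM, by 2.76 (SE 0.135, adjusted p = 5.38e-19). PKM, the pyruvate kinase of most tissues, fell by 0.42 (adjusted p = 2.04e-12), and PYGB, a glycogen phosphorylase, fell by 1.02 (adjusted p = 1.02e-19). BSG, the chaperone of lactate transporters, rose by 0.52 (adjusted p = 4.69e-13) on arm 19p, whose median was 0.31. Among 39 tested hypoxia-responsive genes that are not members, 69.2% were called, against 64% of all genes. Of them 7 rose and 20 fell, with a median of -0.17. These included the collagen cross-linking enzyme gene LOX at -1.31 (adjusted p = 6.45e-25), the lysyl hydroxylase gene PLOD2 at -1.15 (adjusted p = 3.24e-22) and IGFBP3, a binding protein of insulin-like growth factors, at -4.34 (adjusted p = 8.86e-25).

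With LY500307, 24 of the 88 rose and 14 fell in control cells, and 17 rose and 14 fell in knockout cells. The shares called were 43.2% and 35.2%, against 26.3% and 20.4% of all genes. Of all genes tested, 12.3% rose and 14% fell in control cells, and 9.16% and 11.3% in knockout cells. Of the 39 further hypoxia-responsive genes, 17 rose and 6 fell in control cells, and 13 rose and 4 fell in knockout cells, with medians of 0.18 and 0.13. The rises were 43.6% and 33.3% of this list, and the falls 15.4% and 10.3%. DDIT4, an inhibitor of mTORC1 signalling, rose from 23.2 and 21.8 to 39.2 and 43.2 CPM in control cells, by 0.87 (SE 0.0914, adjusted p = 1.24e-08), and by 0.56 (adjusted p = 2.99e-05) in knockout cells. The MYC antagonist gene MXI1 rose by 0.55 (adjusted p = 1.14e-06) and 0.40 (adjusted p = 0.000151), and the membrane protein gene TMEM45A by 0.92 (adjusted p = 8.85e-08) and 0.59 (adjusted p = 9.12e-05). PKM fell in both populations, at -0.19 (adjusted p = 0.000129) and -0.29 (adjusted p = 3.22e-07). Among the 38 glycolytic branch genes, 6 rose and 6 fell in control cells, and 3 rose and 8 fell in knockout cells. The 31.6% called in control cells lie near the 26.3% of all genes. In knockout cells 28.9% were called, against 20.4%. The interaction called 1 of the 88 higher and 3 lower (4.55%), where 0.526% and 1.09% of all genes were (1.62%).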

How the data were processed

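RNA sequencing of 8 ES2 libraries, 2 in each of 4 groups, gave 1 count file per library. These deposited values are unnormalized read counts for each gene symbol. Per the submitters' processing notes, the authors used TopHat2 2.0.8b, HTSeq and bcl2fastq, with hg19 as the genome. Strand setting and annotation were not given in the sources used here. Reads outside genes, 10.7% to 12.8% of uniquely aligned reads, were left out of library sizes. Within groups the libraries differed beyond sampling noise (3.12 to 4.44 chi-square units per degree of freedom) and were kept as separate samples.

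Counts were analysed with edgeR 4.0.16 (limma 3.58.1, R 4.3.3). filterByExpr kept 13498 of 23228 genes. A quasi-likelihood model with TMM scaling and 1 mean per group was fitted to all 8 libraries (4 residual degrees of freedom, biological coefficient of variation 3.95%). Contrasts were tested two-sided with glmQLFTest. P-values were adjusted by Benjamini-Hochberg over all 13498 genes, with a threshold of 0.05, and "rose", "fell" and "called" refer to that threshold. SE is the absolute log2 fold change divided by the square root of F. CPM are relative to TMM-scaled library sizes. The procedure was tested on simulated data. Alternatives were DESeq2 1.42.0, its size factors, library totals, no filter, a replicate block, the compared groups alone, removal of chromosome arm medians on the log scale (limma-trend) and leaving out each library. The same limma-trend fit without centring was added after seeing the data. Gene positions and canonical transcript lengths came from GENCODE release 44 lifted to GRCh37, and promoters from RefSeq on GRCh38.p14.

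Every member could be named, with values per library for members past the threshold with an absolute log2 fold change of at least 0.5 and a mean of at least 5 CPM, and for others where a result turned on them. From each list of other pathway genes up to 5 genes per comparison were eligible by smallest p. Some genes of these lists are not reported here. The members and lists were chosen with earlier results of these data known.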

Additional observations from a re-analysis of the deposited data

Results flagged for a closer look

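For 2 members the response to LY500307 differed between knockout and control cells by the test of the difference itself. The response of NDRG1 in knockout cells minus that in control cells was -0.39 on the log2 scale (SE 0.0944, adjusted p = 0.0253 by edgeR's quasi-likelihood test). LY500307 raised it by 0.75 in control and 0.36 in knockout cells, and the call was lost without control vehicle library 1 (adjusted p = 0.143), knockout vehicle library 2 (adjusted p = 0.22) or control LY500307 library 2 (adjusted p = 0.151). For VEGFA the same difference was 0.31 (SE 0.0735, adjusted p = 0.02), with a response of 0.06, not called, in control and 0.37 in knockout cells. That call was lost without control vehicle library 2 (adjusted p = 0.107), knockout vehicle library 1 (adjusted p = 0.0761), knockout vehicle library 2 (adjusted p = 0.069), control LY500307 library 1 (adjusted p = 0.0791), control LY500307 library 2 (adjusted p = 0.0782) or knockout LY500307 library 1 (adjusted p = 0.0801).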

How the results depend on the processing

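Of the calls made for members, 26 of 32 for knockout against control in vehicle, 28 of 37 for the same with LY500307, 15 of 26 for LY500307 in control cells, 14 of 27 for LY500307 in knockout cells and 0 of 2 for the interaction held under every alternative run. With library totals, members lower with LY500307 in control cells numbered 4 in place of 8. For the interaction, the replicate block gave 4 higher and 2 lower, and no filter gave 2 lower, in place of 1 each. Apart from the fits that leave out 1 library, these were the counts of members called that moved by more than 1.5 times. Leaving out 1 library at a time gave 10 to 11 members higher and 20 to 21 lower for knockout in vehicle, and 11 to 13 and 23 to 25 for knockout with LY500307. It gave 14 to 18 and 5 to 8 for LY500307 in control cells, 12 to 17 and 5 to 8 for LY500307 in knockout cells, and 0 to 1 and 0 to 1 for the interaction. The 5 lower were reached without control LY500307 library 1 in control cells and without knockout vehicle library 2 in knockout cells. Over all genes, the replicate block gave 297 higher and 346 lower for the interaction in place of 71 and 147, no filter gave 248 lower, and DESeq2 gave 790 higher for LY500307 in knockout cells in place of 1237. Leaving out 1 library gave as few as 941 higher and 1205 lower in control cells in place of 1665 and 1885, 537 and 885 in knockout cells in place of 1237 and 1522, and 24 and 71 for the interaction. Among values past the threshold before or after it, removal of chromosome arm medians reversed 7: in vehicle HIF1A (-0.042), VHL (-0.019), SLC16A1 (-0.076) and STC1 (0.030), and with LY500307 HIF1A (-0.14), KDM4B (-0.30) and ERO1A (-0.18). The cause was not tested. Libraries with the same number correlated at 0.0731 to 0.210 across 10415 genes in their deviations from group means, and with 2 numbers per group this was not taken as pairing; the replicate block changed no call of a member to not called and added 10. Low counts limit ADM and EGLN3, for which a difference was not detectable at this depth.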

Other observations

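The isoform make-up of phosphofructokinase and its regulators is given here as shares of length-scaled counts, with no test. PFKP, the platelet-type subunit, made up 68.5% and 69.6% of the sum of PFKL, PFKM and PFKP in control vehicle libraries, 62.7% and 63.6% in knockout vehicle, 70.3% and 70.4% in control LY500307 and 63% and 63.4% in knockout LY500307 libraries. PFKFB3 led the 3 regulator genes with 78.8% and 79.6% in control vehicle, 73.3% and 71.3% in knockout vehicle, 67.6% and 66.7% in control LY500307 and 64.7% and 65.7% in knockout LY500307 libraries. PFKFB4 took 15.8% and 15.7% in control vehicle, 17.5% and 19% in knockout vehicle, 26.9% and 28.1% in control LY500307 and 25.7% and 24.9% in knockout LY500307 libraries. PFKFB2 held 5.41% and 4.66% in control vehicle and 9.27% and 9.73% in knockout vehicle libraries.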
